A study of Mus musculus with 2 samples.

Results

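Macrophages were set against monocytes of the same MC38 tumours, mouse by mouse. The members were the cells that the deposited cell table names Macrophages or Monocytes and whose barcode had at least 1000 unique molecular identifiers (UMIs, each counting 1 captured transcript) of mouse genes. These were 4104 macrophages and 2486 monocytes, 6590 of the 8716 cells of all types that passed the same steps. MC38 is a mouse colon carcinoma line; 2000000 cells were placed under the skin of hFcgR mice, which carry human Fc gamma receptors. Tumours of about 115 mm3 were treated with 2 injections, 3 days apart, of 100 µg of an anti-mGITR human IgG1 antibody or of PBS, and CD45+ cells were sorted on day 4. The labels give 3 mice per treatment as the design, and this library held 6 mice marked by 6 hashtags: 2 given N297A (agonist, Fc-null), 1 given GA-aFuc (agonist, Fc enhanced), 1 given GITR/Syn GA-aFuc, which the labels describe as a non-agonist with an enhanced Fc (what Syn stands for is not given) and 2 Untreated, which the labels also call PBS. Each mouse gave both cell types, so every mouse served as its own control and each treatment stood on both sides of the comparison. All groups share the tumour line, the human receptors and the CD45 sort. With 1 or 2 mice per treatment in 1 library, differences between treatments are thinly replicated.

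Circulating monocytes enter tumours through the chemokine receptor Ccr2 and carry the surface protein Ly6C, encoded in part by Ly6c2. In the tissue they can become macrophages, which lose Ly6c2 and Ccr2 and gain the complement component C1q, apolipoprotein E, scavenger receptors and a larger lysosomal system. Cells between these states are usual in transplanted tumours, so a boundary drawn between the types falls inside a continuum.

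Summed per mouse, macrophages held 9956287 to 11730961 mouse UMIs in 613 to 761 cells, and monocytes held 3416570 to 5577866 UMIs in 324 to 562 cells. The GA-aFuc mouse had 2.35 macrophages per monocyte, the GITR/Syn GA-aFuc mouse 2.00, the N297A mice 1.41 and 1.79, and the Untreated mice 1.51 and 1.23; with 1 or 2 mice a treatment these ratios are given without a test. Levels below are CPM, the UMIs of a gene per 1000000 UMIs of all mouse genes. The authors named the types by a method not given in the sources used here. A small adjusted p below weighs the size of a difference against its spread over the 6 mice, a spread estimated partly from other genes. Such a p is no independent evidence that the types differ, least of all for genes that may have named them.

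Markers of other cell types were summed over each list. The summed level of 7 T cell genes was 12.7 to 25.2 CPM in macrophages and 15.1 to 29.5 CPM in monocytes, against 5535 CPM in CD8 T cells of the same library. The sum of 5 NK cell genes was 2.73 to 5.02 CPM in macrophages and 3.41 to 9.84 CPM in monocytes, and that of 7 dendritic cell genes 15.1 to 30.9 CPM in macrophages and 16.9 to 34.3 CPM in monocytes. Within the dendritic cell list, Xcr1, a receptor of cross-presenting dendritic cells, averaged 8.12 CPM in macrophages and 0.63 CPM in monocytes (log2 3.57), whereas Dpp4 averaged 3.64 CPM in macrophages and 16.0 CPM in monocytes (log2 -2.22), both without overlap. The sum of 6 neutrophil genes was 29.2 to 43.6 CPM in macrophages and 50.7 to 76.4 CPM in monocytes, mostly Csf3r, the receptor for granulocyte colony-stimulating factor; S100a8 did not pass 0.703 CPM in macrophages or 7.90 CPM in monocytes. The B cell list summed to 22.6 to 35.6 CPM in macrophages and 6.87 to 9.64 CPM in monocytes through Cd79b, a subunit of the B cell receptor. The tumour and stroma list gave 106 to 160 CPM in macrophages and 74.7 to 131 CPM in monocytes, mostly the endothelial and myeloid adhesion gene Pecam1, with Krt8 and Krt18 at most 0.491 CPM. Of the plasmacytoid dendritic cell list, Bst2 made up nearly all of 1340 to 1642 CPM in macrophages and 908 to 1281 CPM in monocytes, and Siglech stayed at or under 1.00 CPM. Haemoglobin genes reached at most 3.31 CPM in any macrophage sum, against 398 CPM in the monocytes of Untreated replicate 2. The part of these markers in the differences below was not tested.

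The 4 markers that name the comparison set the types apart to unequal degrees. C1qa (ENSMUSG00000036887), a chain of complement C1q, was at 5098, 5590 and 6073 CPM in macrophages (lowest, median and highest mouse) and at 1761, 1964 and 2409 CPM in monocytes. The mice did not overlap between types, and the log2 ratio of macrophages over monocytes was 1.38 (SE 0.045, edgeR adjusted p = 1.3e-13). Ly6c2 (ENSMUSG00000022584) was at 43.0, 56.2 and 100.0 CPM in macrophages and at 1724, 2232 and 2864 CPM in monocytes. That is a log2 ratio of -5.29 (SE 0.084, edgeR adjusted p = 1.1e-11), with every macrophage value far under every monocyte value. Ccr2 (ENSMUSG00000049103) stood at 51.1, 67.6 and 76.3 CPM in macrophages and at 295, 445 and 521 CPM in monocytes, a log2 ratio of -2.80 (SE 0.084, edgeR adjusted p = 1.4e-09).

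Apoe (ENSMUSG00000002985), the lipid carrier apolipoprotein E, was the weakest of the 4. Its levels were 5048, 9337 and 9823 CPM in macrophages and 4482, 5923 and 6538 CPM in monocytes. Within each mouse Apoe was higher in macrophages, with a log2 ratio of 0.48 (SE 0.086, edgeR adjusted p = 0.0026), but the types overlapped because the macrophages of Untreated replicate 2 lay below the monocytes of 4 mice.

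**Figure D1:**
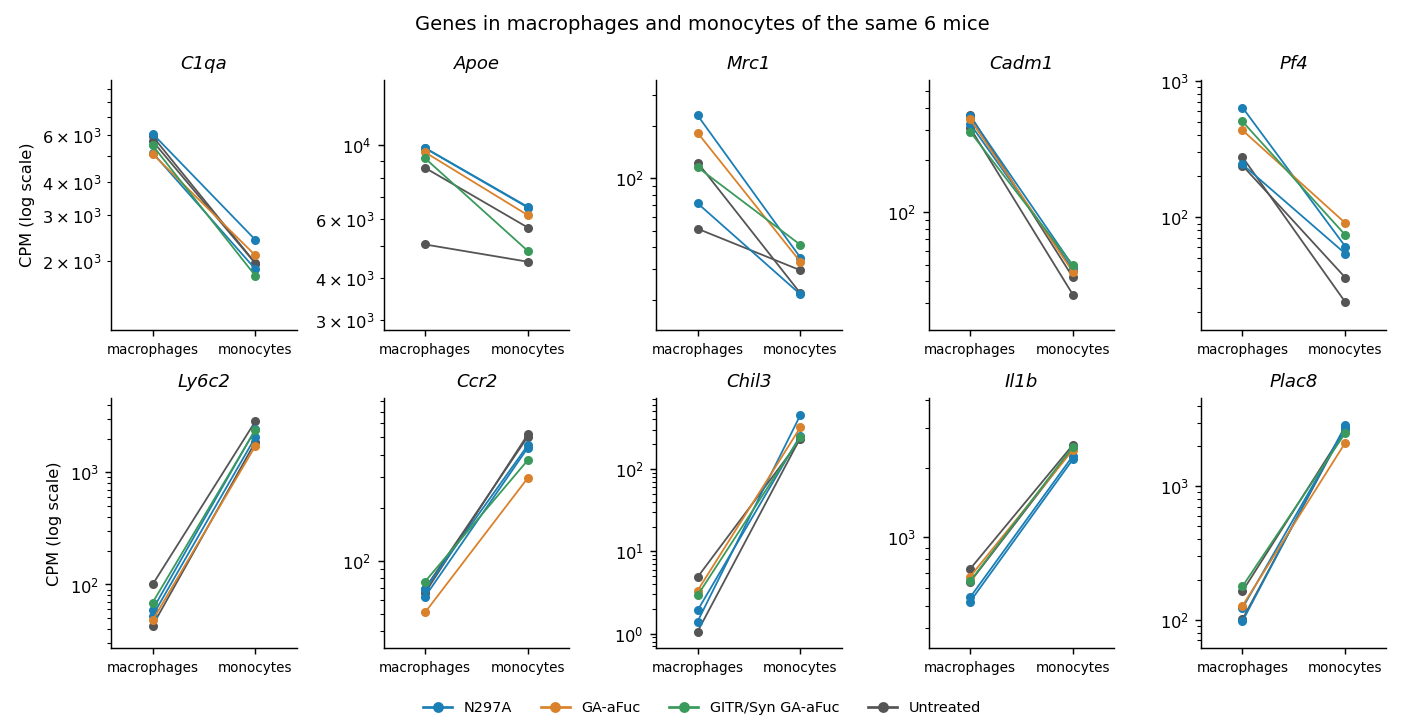
Levels of 10 genes (CPM of mouse-gene UMIs, log scale) in the macrophages and monocytes of each mouse; each line joins the cell types of 1 mouse and its colour gives the treatment. C1qa, Cadm1, Pf4 and Mrc1 are higher in macrophages and Ly6c2, Ccr2, Chil3, Il1b and Plac8 lower in all 6 mice without overlap, while the Apoe values overlap (5048 to 9823 CPM in macrophages, 4482 to 6538 CPM in monocytes). Cadm1, Pf4, Chil3 and Plac8 were named by a rule that required the lack of overlap.

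Single cells were compared after each was thinned to 2000 UMIs, which left out 18 cells of each type. C1qa was then found in 98.4% of macrophages (95% exact binomial interval 97.9 to 98.7%) and 57.9% of monocytes (55.9 to 59.9%). In CD8 T cells, which do not make C1q, 22.8% had a C1qa UMI at a median depth of 8158 UMIs before thinning, against median depths of 15220 in macrophages and 9337 in monocytes, and a share of that size is taken as background, whether from free RNA or from doublets, which were not told apart. Unthinned, the shares were 99.6% of macrophages, 79.8% of monocytes and 59.0% of CD8 T cells. Ly6c2 was found in 8.22% of macrophages (7.40 to 9.11%) and 78.7% of monocytes (77.0 to 80.3%), and unthinned in 31.0% and 92.3%. The Ly6c2 share was 80.8% in CD8 T cells, which express the gene, and 27.8% in NK cells. Ccr2 was found in 11.1% of macrophages and 52.4% of monocytes, and unthinned in 30.9% and 85.7%. The Ccr2 share was 9.59% in CD8 T cells (25.3% unthinned) and 30.4% in NK cells. Both C1qa and Ly6c2 were found in 7.83% of macrophages (7.03 to 8.70%) and in 42.0% of monocytes (40.1 to 44.0%), and unthinned in 30.7% and 73.4%. For this pair CD8 T cells had 18.6% (54.4% unthinned) and NK cells 6.36%. CD8 T cells express Ly6c2, and whether NK cells express Ly6c2 or Ccr2 was not tested. Lymphocytes therefore set no clear background for these shares. Free RNA, from near-empty barcodes outside the cell table, held 878 CPM of Ly6c2 and 89.7 CPM of Ccr2. The means in macrophages were 62.0 and 65.8 CPM. Free RNA and doublets were not told apart from expression, so the macrophage shares of Ly6c2 and Ccr2 are not read as expression. These intervals cover counting error only.

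More UMIs were captured per macrophage than per monocyte. Macrophages had 15671 ± 924 mouse UMIs per cell and monocytes 9988 ± 334 (SD over 6 mice each), a ratio of 1.57 that ran from 1.44 to 1.69 among mice. After thinning to 5000 UMIs, which left out 116 macrophages and 108 monocytes, 2128 ± 20.8 genes were detected per macrophage and 2079 ± 17.2 per monocyte. Mitochondrial genes took 1.94 ± 0.087% of the UMIs of macrophages and 1.21 ± 0.090% of those of monocytes. Hashtag UMIs, which come from a surface-binding antibody and not from gene expression, were 5237 ± 1429 per macrophage and 3445 ± 623 per monocyte. All 4 measures were higher in macrophages in 6 of 6 mice, with a two-sided exact sign-flip permutation p of 0.03125 each, also after Benjamini-Hochberg adjustment over the 4. This is the smallest p that 6 mice allow.

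**Figure D2:**
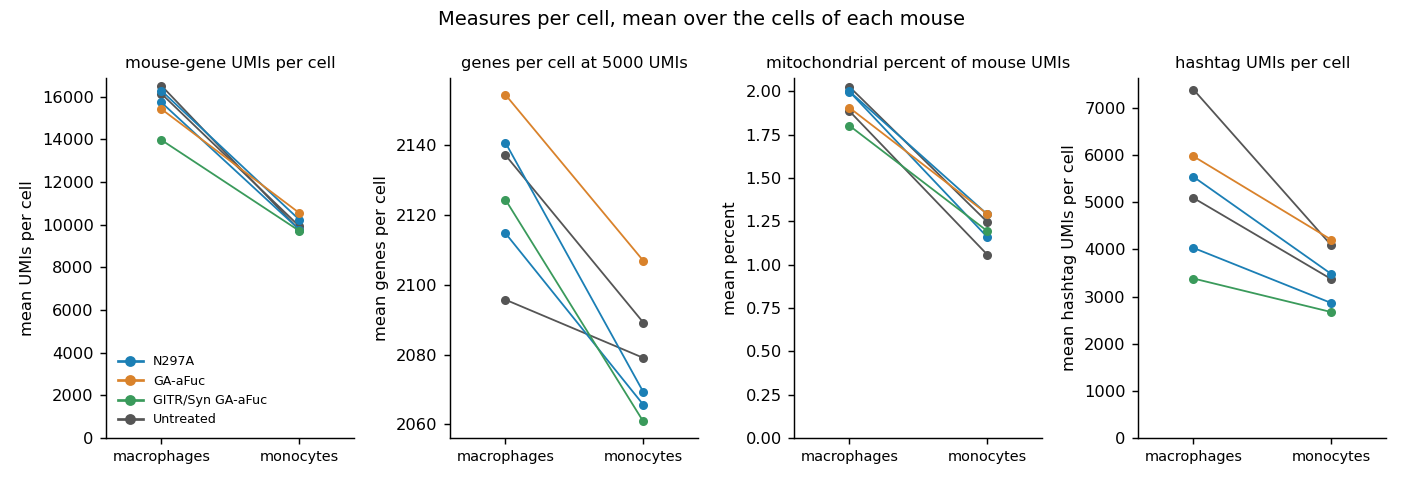
Mean mouse-gene UMIs per cell, genes detected per cell at 5000 UMIs (axis not from 0), mitochondrial percent of UMIs and hashtag UMIs per cell in the macrophages and monocytes of each mouse, 1 line per mouse coloured by treatment. Every line falls towards the monocytes, and the UMI ratio within a mouse is 1.44 to 1.69.

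Because a macrophage held 1.57 times the UMIs of a monocyte, a gene at equal copies per cell has a log2 ratio below 0 per UMI. Scaling by the number of cells in place of UMIs moved the median log2 ratio of all genes from 0.0192 to 0.768. Ratios below are per UMI with TMM scaling, and each gene list is given on both scales.

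Of 11964 genes tested with edgeR, 3544 (29.6%) were higher and 3494 (29.2%) lower in macrophages at an adjusted p under 0.05. At least 2-fold differences were found in 706 genes higher (5.9%) and 632 lower (5.28%), and 4161 of the 7038 called genes differed by less than 1.5-fold. These shares are the background against which the counts of each list below are to be read. The 6 macrophage values lay wholly above the 6 monocyte values for 2558 genes (21.4%) and wholly below them for 1442 (12.1%). With library size as the only scaling, 4675 genes were higher and 2729 lower. Per cell, 10063 were higher and 611 lower, and the per-cell counts of each list are to be read against these.

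The 15 genes furthest above monocytes by the naming rule were led by the neuronal adhesion molecule Negr1. The rule admits only genes with an adjusted p under 0.05, the same direction in all 6 mice and no overlap. For the 15 genes of each direction these traits follow from the choice and are no results. It was at 38.4, 64.8 and 79.4 CPM in macrophages and at 1.35, 4.18 and 6.15 CPM in monocytes (lowest, median and highest mouse), a log2 ratio of 3.83 (SE 0.136, edgeR adjusted p = 2.0e-13). Cadm1, another adhesion molecule of the immunoglobulin family, was at 293, 336 and 365 CPM in macrophages and at 33.5, 46.2 and 49.5 CPM in monocytes, a log2 ratio of 2.82 (SE 0.067). Both genes left a gap between the types, as that rule requires. The tetraspanin Cd81 was also higher, at 518 ± 28.0 CPM in macrophages and 91.5 ± 20.0 CPM in monocytes (SD, n = 6).

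Of the 15 genes, 3 were chemokines. Ccl8, a ligand that draws monocytes and lymphocytes, was at 41.4, 78.3 and 167 CPM in macrophages and at 5.92, 13.3 and 15.2 CPM in monocytes. Pf4, platelet factor 4, was at 240, 357 and 642 CPM in macrophages and at 23.8, 57.5 and 90.7 CPM in monocytes. Cxcl14, a chemokine made by many tissue cells, was at 64.2, 73.7 and 93.7 CPM in macrophages and at 7.85, 10.5 and 13.9 CPM in monocytes. The log2 ratios of the 3 were 2.88 (SE 0.118), 2.69 (SE 0.211) and 2.77 (SE 0.094). The other 9 genes, H1f5, Pclaf, Birc5, Top2a, Ube2c, Mki67, H2ac8, Stmn1 and Cks1b, belong to DNA replication, histones and mitosis and are described with the cell cycle.

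The 15 genes furthest below monocytes by the same rule were led by Hp, haptoglobin, which binds free haemoglobin. It was at 0.180, 0.502 and 1.02 CPM in macrophages and at 58.3, 80.3 and 116 CPM in monocytes, a log2 ratio of -7.35 (SE 0.125, edgeR adjusted p = 7.0e-21). Chil3, a chitinase-like secretory protein of monocytes, was at 1.06, 2.41 and 4.85 CPM in macrophages and at 228, 249 and 451 CPM in monocytes, a log2 ratio of -6.86 (SE 0.276). For both genes the macrophage levels were nearly absent in all mice.

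Plac8, a small cysteine-rich protein, was far from absent in macrophages, with 97.7, 125 and 178 CPM against 2124, 2683 and 2854 CPM in monocytes, a log2 ratio of -4.42 (SE 0.195). The coagulation factor gene F10 (log2 -4.70), the phospholipase Plcb1 (-5.47), the oxidized lipoprotein receptor Olr1 (-4.73), Mcemp1 (-4.93) and the activin subunit gene Inhba (-3.56) were lower in all 6 mice without overlap, as were the Ly6 family members Ly6a2 (-7.19) and Ly6i (-5.95). Genes of the Ly6 family are near copies, so the counting could have divided their reads among them. Slpi, an inhibitor of neutrophil proteases, had a log2 ratio of -4.45 (SE 0.104), at 1.73, 2.82 and 25.9 CPM in macrophages and 47.7, 56.2 and 564 CPM in monocytes. The highest value of each type belonged to the GITR/Syn GA-aFuc mouse, and without it the log2 ratio was -4.38.

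Among 20 genes listed for monocyte identity, 17 were lower in macrophages and 3 higher (4 higher and 15 lower per cell), with a median log2 ratio of -2.92 beside 0.0192 for all genes. Vcan, the matrix proteoglycan versican, was at 2.43 ± 0.426 CPM in macrophages and 42.2 ± 3.20 CPM in monocytes. Ace, angiotensin-converting enzyme, a gene of patrolling monocytes, was at 0 to 0.426 CPM in macrophages and at 10.4 to 25.1 CPM in monocytes. The 3 that ran the other way are listed as genes of patrolling monocytes. Cx3cr1, the fractalkine receptor, was at 423, 454 and 552 CPM in macrophages and 193, 201 and 271 CPM in monocytes (log2 1.03, SE 0.039), Cd300e had a log2 ratio of 2.29 (SE 0.113) and Spn, CD43, one of 0.91 (SE 0.283, edgeR adjusted p = 0.037).

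Of 18 tested genes for macrophage identity, 15 were higher in macrophages and 3 lower (17 and 1 per cell), with a median log2 ratio of 1.03. Mrc1, the mannose receptor CD206, was at 51.2, 119 and 229 CPM in macrophages and at 21.5, 31.3 and 41.4 CPM in monocytes, a log2 ratio of 1.87 (SE 0.286, edgeR adjusted p = 0.0025), with no overlap but a wide range among macrophages. Folr2, a folate receptor of resident macrophages, was low in both, at 3.77 to 9.52 CPM in macrophages and 0.245 to 2.03 CPM in monocytes. Adgre1, an adhesion receptor that marks mouse macrophages, had a log2 ratio of 1.08 (SE 0.038), and Ms4a7 one of 1.43 (SE 0.140). Genes lower per UMI included Csf1r (-0.34), the receptor for macrophage colony-stimulating factor, and F7 (-1.70), coagulation factor VII.

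**Figure D3:**
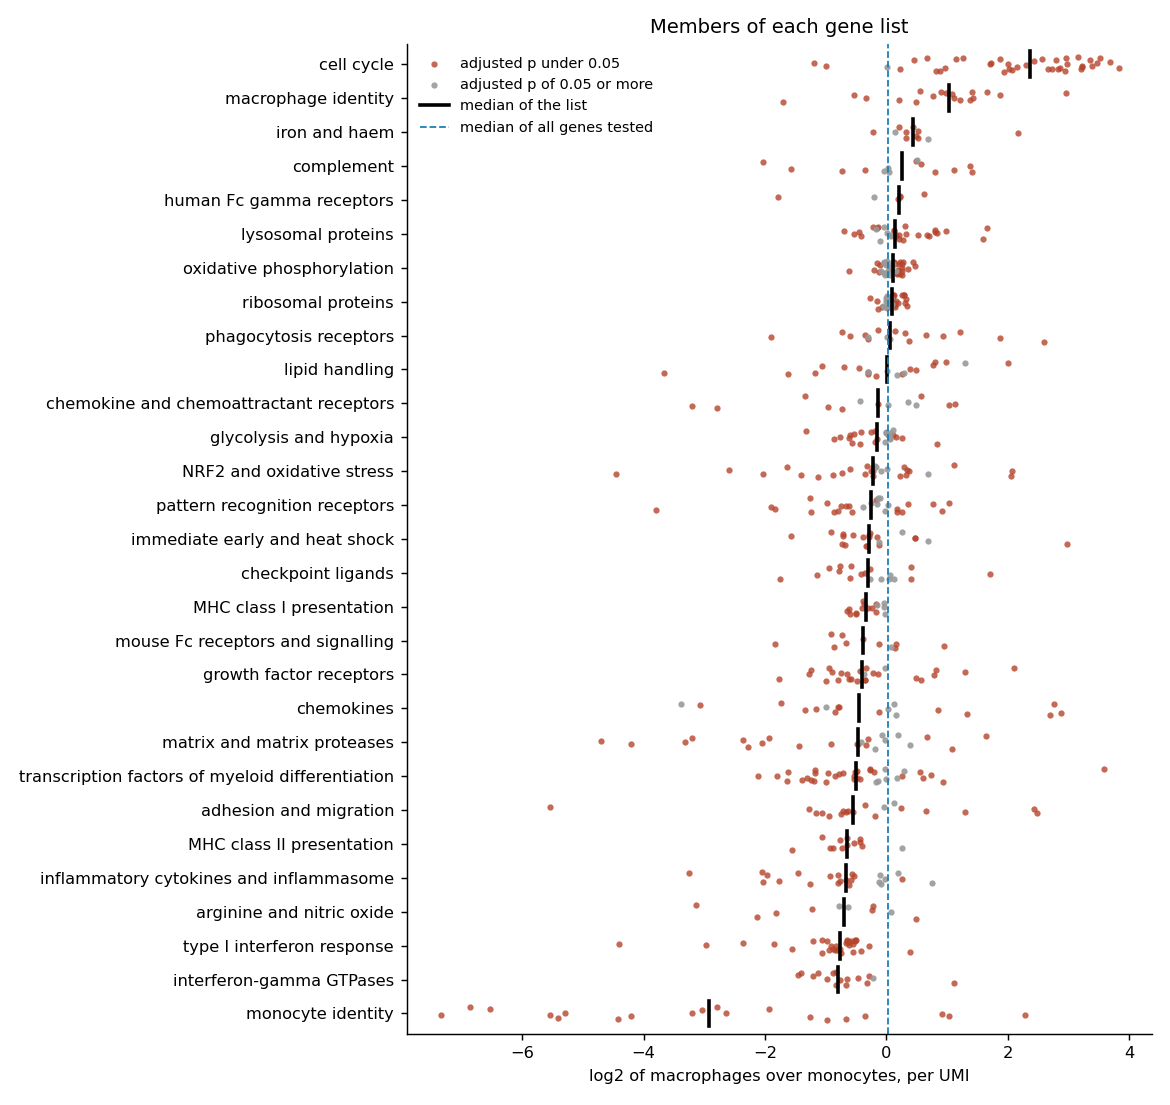
Log2 ratio of macrophages over monocytes, per UMI, for every tested member of each gene list (points; red at an edgeR adjusted p under 0.05), with the list's median (black bar) and the median of all genes (dashed line, 0.0192). The cell cycle and macrophage identity lists lie furthest to the right and monocyte identity furthest to the left. Per cell the median of all genes is 0.768, and 10063 of all 11964 genes are higher. The class I genes, lower here for 12 of 16, are then higher for 14 of 16.

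The classical complement chains led the complement list, in which 6 of 14 tested genes were higher and 4 lower (11 and 2 per cell). C1qa is given above, and C1qb (log2 1.12, SE 0.043) and C1qc (1.41, SE 0.044) were close to it. C3, the central complement component, went the other way, at 26.1, 51.8 and 64.4 CPM in macrophages and 135, 188 and 210 CPM in monocytes (log2 -2.04, SE 0.115, edgeR adjusted p = 2.8e-06). Cfb, a protease of the alternative pathway, had a log2 ratio of -0.74 (SE 0.043). C3ar1, the receptor for the fragment C3a, was higher (0.58, SE 0.046), whereas C5ar1 had a log2 ratio of 0.02 (SE 0.051, edgeR adjusted p = 0.79).

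Lysosomal proteins were mostly higher by small amounts, 19 of 32 higher and 7 lower (31 and 0 per cell), with a median log2 ratio of 0.14. Acp5, tartrate-resistant acid phosphatase, was at 241, 269 and 322 CPM in macrophages and 59.8, 84.3 and 132 CPM in monocytes (log2 1.59, SE 0.107), and Cd63, a membrane protein of late endosomes, at 278, 377 and 448 CPM against 95.3, 112 and 120 CPM (log2 1.65, SE 0.100). Neither overlapped between the types. Ctsd, the protease cathepsin D, was at 382, 564 and 697 CPM in macrophages and 209, 248 and 374 CPM in monocytes. Of its monocyte values the highest came from the GITR/Syn GA-aFuc mouse. Lamp2, a lysosomal membrane protein, was among the 7 lower per UMI (-0.53, SE 0.036).

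Of 21 genes of lipid handling, 7 were higher and 9 lower (15 and 4 per cell), with a median log2 ratio of 0.01. Lpl, lipoprotein lipase, was at 20.9, 39.6 and 47.7 CPM in macrophages and 6.62, 8.15 and 11.9 CPM in monocytes (log2 2.01, SE 0.116), and Trem2, a lipid-sensing receptor, at 286, 314 and 386 CPM against 163, 178 and 197 CPM (log2 0.77, SE 0.042). Apolipoproteins differed in direction: Apoe was higher, while Apoc1 (-3.66, SE 0.247) and Apoc2 (-1.18, SE 0.148) were lower.

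Uptake receptors were likewise divided, with 8 of 17 higher and 6 lower (14 and 1 per cell). Mertk, which binds apoptotic cells through Gas6, was at 81.8, 121 and 166 CPM in macrophages and 31.2, 48.2 and 85.2 CPM in monocytes (log2 1.22, SE 0.097), overlapping by a single pair of values. Its ligand gene Gas6 was higher too (2.59, SE 0.200), at 5.12 to 16.3 CPM in macrophages and 0.585 to 2.47 CPM in monocytes. Clec7a, the fungal glucan receptor dectin-1, was lower, at 138, 231 and 251 CPM in macrophages and 563, 719 and 928 CPM in monocytes (log2 -1.91, SE 0.081). In the iron and haem list, 8 of 11 were higher and 1 lower (11 and 0 per cell), led by the copper oxidase gene Cp (log2 2.17, SE 0.197), with Fth1, the ferritin heavy chain, as the gene lower per UMI (-0.22, SE 0.032).

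Antigen presentation genes were mostly lower per UMI. Per cell, class II genes were mixed in direction and class I genes mostly higher, as were most genes tested. Of 13 genes of class II presentation, 12 were lower and 0 higher per UMI, with a median of -0.66, whereas 5 were higher and 3 lower per cell. Among the members, the costimulatory gene Cd80 was at 38.5, 57.7 and 79.1 CPM in macrophages and 123, 160 and 176 CPM in monocytes (log2 -1.55, SE 0.081, edgeR adjusted p = 9.5e-09), lower per cell too (-0.81). Ciita, the activator of class II transcription, had a log2 ratio of -0.93, and the second costimulatory gene Cd86 was at 442, 518 and 600 CPM against 786, 905 and 982 CPM (log2 -0.88, SE 0.046). The class II chain H2-Ab1 had a log2 ratio of -0.66 (SE 0.041) and overlapping mice, at 2534, 3083 and 4606 CPM in macrophages and 3983, 4862 and 5768 CPM in monocytes. Of 16 class I genes, 12 were lower and 0 higher per UMI (median -0.34), but 14 were higher and 0 lower per cell, so their direction depends on the scale. Per cell 10063 of all 11964 genes were higher, and the class I median was 0.41 beside 0.768 for all genes.

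Genes induced by type I interferon were lower per UMI as a list. Of 32 tested, 31 were lower and 1 higher (11 lower and 8 higher per cell), with a median log2 ratio of -0.76; 8 were lower by at least 2-fold. Ifit1bl1, of the family that binds viral RNA, was at 6.26, 10.7 and 11.9 CPM in macrophages and 43.2, 73.4 and 94.4 CPM in monocytes (log2 -2.98, SE 0.083, edgeR adjusted p = 5.3e-17). Ifi205, a DNA sensor of the Ifi200 family, was at 47.3, 56.6 and 60.9 CPM in macrophages and 227, 269 and 306 CPM in monocytes (log2 -2.37, SE 0.049). Neither overlapped in any mouse; members of the Ifit and Ifi200 families are near copies whose reads the counting could divide.

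Isg20, an exonuclease, had a log2 ratio of -1.86 (SE 0.064), and Ifitm6 one of -4.40 (SE 0.234). Rsad2, viperin, was at 159, 213 and 302 CPM in macrophages and 361, 609 and 820 CPM in monocytes (log2 -1.56, SE 0.147, edgeR adjusted p = 0.00025). Irf7, a transcription factor of the response, differed less (-0.65, SE 0.046). The 1 gene higher in macrophages was Ifi44 (0.38, SE 0.099, edgeR adjusted p = 0.0089).

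The GTPases that interferon-gamma induces against intracellular microbes had the same layout, 14 of 16 lower and 1 higher per UMI (5 and 5 per cell), with a median of -0.80. Gbp5 was at 37.9, 59.0 and 71.3 CPM in macrophages and 122, 135 and 175 CPM in monocytes (log2 -1.41, SE 0.060), and Gbp2 at 168, 272 and 338 CPM against 478, 565 and 651 CPM (log2 -1.22, SE 0.075). Tgtp1 was lower as well (-1.46, SE 0.161), at 4.07 CPM on average in macrophages and 10.4 CPM in monocytes. Gbp2b was the exception (1.12, SE 0.184), at 62.1, 92.1 and 155 CPM in macrophages and 26.3, 36.1 and 70.0 CPM in monocytes; its sequence is close to that of Gbp2.

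Promoters of these genes are shown because the members were lower together per UMI, which they were not per cell. Those shown had the largest changes among the called members whose promoter held the motif below. A match in each was thus required by the choice. They come from RefSeq (GRCm38.p6, whereas the counts use GRCm39, so only gene names link them), and each covers the 250 bases before the start site, 5′ to 3′ on the gene's strand. Capitals mark matches on either strand to TTTC, any 2 bases and TTTC again, the core letters of the interferon-stimulated response element. Ifit1bl1 is at chr19:34601969-34602218, Ifi205 at chr1:174031756-174032005, Rsad2 at chr12:26456453-26456702 and Tgtp1 at chr11:48992247-48992496, all on the minus strand.
Ifit1bl1: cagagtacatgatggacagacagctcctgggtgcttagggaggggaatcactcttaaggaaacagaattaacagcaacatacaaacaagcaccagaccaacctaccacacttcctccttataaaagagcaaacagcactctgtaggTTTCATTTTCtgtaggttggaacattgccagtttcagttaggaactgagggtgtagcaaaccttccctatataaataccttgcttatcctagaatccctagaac
Ifi205: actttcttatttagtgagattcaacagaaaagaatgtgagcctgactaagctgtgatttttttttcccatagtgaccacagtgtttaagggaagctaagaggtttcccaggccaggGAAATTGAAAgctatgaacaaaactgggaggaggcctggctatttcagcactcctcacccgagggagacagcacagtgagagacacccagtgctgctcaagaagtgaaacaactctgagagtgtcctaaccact
Rsad2: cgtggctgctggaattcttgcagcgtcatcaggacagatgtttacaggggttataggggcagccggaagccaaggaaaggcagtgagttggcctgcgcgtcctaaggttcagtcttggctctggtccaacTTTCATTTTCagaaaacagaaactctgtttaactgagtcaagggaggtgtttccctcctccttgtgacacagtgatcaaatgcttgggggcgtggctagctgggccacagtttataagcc
Tgtp1: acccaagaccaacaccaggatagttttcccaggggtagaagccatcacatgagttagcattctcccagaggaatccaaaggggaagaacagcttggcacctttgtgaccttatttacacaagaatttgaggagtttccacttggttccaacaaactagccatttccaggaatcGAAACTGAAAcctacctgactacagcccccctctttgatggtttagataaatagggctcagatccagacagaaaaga
The match nearest the start site lay 94 bases before it in Ifit1bl1, 124 in Ifi205, 110 in Rsad2 and 67 in Tgtp1. Of all 32851 promoters in the table, 978 (2.98%) held the motif. It was in 14 of 30 promoters of the type I list (46.7%; 26 of 34 members matched a promoter) and in 10 of 12 of the GTPase list (83.3%; 11 of 16 members matched), against 0 of 35 of the cell cycle list. A match is a description of letters and not of binding.

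Inflammatory cytokines were lower per UMI, 16 of 23 lower and 1 higher (7 lower and 10 higher per cell), with a median of -0.66. Il1b, interleukin-1 beta, was at 522, 639 and 725 CPM in macrophages and 2189, 2426 and 2532 CPM in monocytes (log2 -2.04, SE 0.040, edgeR adjusted p = 7.7e-20). Its decoy receptor gene Il1r2 (-2.03, SE 0.048) and its antagonist gene Il1rn (-1.97, SE 0.113) were lower alongside it. Il6 was scarce in both, at 0.309 CPM on average in macrophages and 3.00 CPM in monocytes. Tnf (-0.10, SE 0.064, edgeR adjusted p = 0.20) and Il10 (0.19, SE 0.182, edgeR adjusted p = 0.39) did not pass.

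Among 18 chemokines, 5 were higher and 8 lower (9 and 4 per cell). Besides Ccl8, Pf4 and Cxcl14, the higher ones were the Ccr2 ligands Ccl7 (log2 1.32, SE 0.124) and Ccl12 (0.84, SE 0.105). Lower ones included the Cxcr3 ligands Cxcl9 (-0.79, SE 0.105) and Cxcl10 (-0.84, SE 0.047), the neutrophil attractant Cxcl2 (-1.74, SE 0.047) and the T cell attractant Ccl5 (-1.34, SE 0.133). Cxcl3 was lower as well (-3.08, SE 0.809, edgeR adjusted p = 0.021), but its monocyte value of 91.7 CPM in the GITR/Syn GA-aFuc mouse stood against 0 to 17.6 CPM in the other 5. Within mice it was higher in macrophages in 3 of 6. It did not pass in DESeq2 (adjusted p = 0.10) or without the GA-aFuc mouse (edgeR adjusted p = 0.063).

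Receptors for chemoattractants gave 3 of 13 higher and 6 lower (7 and 3 per cell). Ltb4r1, the leukotriene B4 receptor, was at 4.43, 7.82 and 10.2 CPM in macrophages and 56.7, 68.0 and 69.2 CPM in monocytes (log2 -3.20, SE 0.111), and Ccr1 had a log2 ratio of -1.35 (SE 0.075). Fpr1, the formyl peptide receptor, was higher (1.13, SE 0.201) from low levels. Among 19 adhesion genes, 5 were higher and 12 lower (10 and 5 per cell). Vcam1, a ligand of alpha-4 integrins, was at 17.8, 34.9 and 72.4 CPM in macrophages and 2.36, 6.86 and 10.6 CPM in monocytes (log2 2.48, SE 0.118), and Itga6, the integrin alpha-6 chain, was also higher (1.30, SE 0.076).

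Of 10 genes of arginine and nitric oxide metabolism, 6 were lower and 1 higher (4 and 4 per cell). Nos2, the inducible nitric oxide synthase, was at 4.53, 14.5 and 36.1 CPM in macrophages and 30.8, 50.7 and 157 CPM in monocytes (log2 -2.13, SE 0.208, edgeR adjusted p = 0.00020), with overlap between mice but lower in macrophages in each. Arg2 (-3.14, SE 0.128), Ass1, which rebuilds arginine from citrulline (-1.82, SE 0.102), and Gch1, which makes the synthase's cofactor (-1.23, SE 0.046), were lower too. Arg1, arginase 1, did not pass (-0.63, SE 0.215, edgeR adjusted p = 0.052), at 114, 243 and 421 CPM in macrophages and 127, 299 and 894 CPM in monocytes.

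Glycolysis and hypoxia genes depended on the scale, with 4 of 25 higher and 13 lower per UMI, 9 and 9 by library size alone, and 20 and 1 per cell. Hif1a, the oxygen-regulated transcription factor, was lower per UMI and per cell, at 104, 127 and 164 CPM in macrophages and 249, 305 and 400 CPM in monocytes (log2 -1.32, SE 0.045). Slc2a1, the glucose transporter GLUT1, had a log2 ratio of -0.76 (SE 0.087) per UMI and -0.01 per cell. Genes of oxidative phosphorylation were 19 of 41 higher and 5 lower per UMI, 31 and 2 by library size alone, and 41 and 0 per cell, with a median of 0.10. Ribosomal protein genes gave 17 of 34 higher and 4 lower per UMI, 28 and 1 by library size, and 34 and 0 per cell, with a median of 0.08; none of either list differed 2-fold per UMI.

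In the oxidative stress list, 8 of 28 were higher and 15 lower (20 and 7 per cell). Gsr, glutathione reductase, was at 16.9, 19.5 and 31.1 CPM in macrophages and 74.4, 126 and 160 CPM in monocytes (log2 -2.60, SE 0.106). The metallothionein gene Mt2 (2.06, SE 0.253) and Gpx3, a glutathione peroxidase (2.05, SE 0.207), were higher. Of 21 immediate early and heat shock genes, which also respond to tissue dissociation, 15 were lower and 3 higher (2 and 15 per cell), among them Ier3 (-1.58, SE 0.125) and Btg2 (-0.91, SE 0.040) lower. Hspb1, a small heat shock protein, had a log2 ratio of 2.98 (SE 0.466), and 4.88 without the GITR/Syn GA-aFuc mouse, whose values of 31.3 CPM in macrophages and 7.81 CPM in monocytes stood above the rest.

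Transcription factors of myeloid differentiation were 25 of 37 lower and 6 higher per UMI (12 lower and 22 higher per cell). Bhlhe41, a repressor found in self-renewing macrophages, was at 8.75, 11.6 and 14.1 CPM in macrophages and 0.263, 0.922 and 1.72 CPM in monocytes (log2 3.59, SE 0.228). Nr4a2, an orphan nuclear receptor of the immediate early class, was at 95.2, 116 and 161 CPM in macrophages and 315, 372 and 499 CPM in monocytes (log2 -1.81, SE 0.043). Egr2 (-1.64, SE 0.122) and Cebpe (-2.12, SE 0.259), a factor of granulocyte maturation, were lower.

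Receptors and ligands of growth factors were 18 of 26 lower and 6 higher (6 and 16 per cell). The genes that differed most were Pdgfc, a platelet-derived growth factor (log2 2.10, SE 0.251), Vegfb (1.29, SE 0.123), the vascular endothelial growth factor receptor gene Flt1 (-1.77, SE 0.107) and Csf2rb2, a beta chain of the interleukin-3 receptor (-1.27, SE 0.071). Of 27 pattern recognition receptors, 13 were lower and 7 higher (6 and 15 per cell). Clec4e, Mincle, which senses mycobacterial glycolipid, was at 2.92, 6.58 and 14.5 CPM in macrophages and 83.6, 98.4 and 133 CPM in monocytes (log2 -3.80, SE 0.289). Its neighbours of the same family Clec4d (-1.83, SE 0.072) and Clec4n (-1.26, SE 0.162) were lower by less.

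Among 18 checkpoint ligands and inhibitory receptors, 10 were lower and 3 higher (3 and 12 per cell). Cd274, which encodes PD-L1, was at 148, 195 and 264 CPM in macrophages and 269, 345 and 515 CPM in monocytes (log2 -0.95, SE 0.044, edgeR adjusted p = 9.0e-14). Pdcd1lg2, which encodes PD-L2, was lower (-1.75, SE 0.117), as was Pvr (-1.15, SE 0.070), while the inhibitory lectin gene Siglece was higher (1.71, SE 0.119). In the list of matrix and matrix proteases, 14 of 23 were lower and 3 higher (9 and 11 per cell). Fn1, fibronectin, was at 21.3, 30.1 and 52.4 CPM in macrophages and 205, 275 and 301 CPM in monocytes (log2 -3.20, SE 0.186), and Mmp8, a neutrophil collagenase, was lower from low levels (-3.32, SE 0.382, and -3.91 without the GITR/Syn GA-aFuc mouse). Timp2, an inhibitor of these proteases, was higher (1.65, SE 0.069).

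Receptors for IgG bear on antibodies that differ in Fc. Of 6 human Fc gamma receptor genes counted, 4 were higher and 1 lower (5 and 1 per cell). FCGR2B, the inhibitory receptor, was at 262, 336 and 474 CPM in macrophages and 1001, 1082 and 1170 CPM in monocytes (log2 -1.78, SE 0.102, edgeR adjusted p = 8.1e-06), with no overlap. FCGR1A, the high-affinity activating receptor, was at 161, 222 and 285 CPM in macrophages and 94.8, 128 and 175 CPM in monocytes (log2 0.63, SE 0.044), higher within each mouse while the types overlapped. FCGR2A (0.22, SE 0.043) and FCGR3B (0.22, SE 0.038) were higher by small amounts, as was FCGR3A (0.19, SE 0.043), and FCGR2C did not pass (-0.21, SE 0.168, edgeR adjusted p = 0.30). The near copies FCGR3A and FCGR3B, and FCGR2A, FCGR2B and FCGR2C, could share reads.

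The mouse genes of Fc receptors and their signalling gave 3 of 11 higher and 7 lower (6 and 1 per cell). Mouse Fcgr2b was at 412, 483 and 534 CPM in macrophages and 727, 744 and 777 CPM in monocytes (log2 -0.73, SE 0.039), in the same direction as human FCGR2B. These are RNA levels, and whether these mice make working mouse Fc gamma receptors was not tested. Fgr, a Src-family kinase, was at 28.5, 31.3 and 32.3 CPM in macrophages and 87.8, 103 and 122 CPM in monocytes (log2 -1.84, SE 0.056), and Fcgr3 (-0.91, SE 0.086) and the inhibitory receptor gene Pirb (-0.86, SE 0.044) were lower. Fcgrt, the neonatal Fc receptor that recycles IgG, was higher (0.94, SE 0.065).

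Of the lists mostly higher in macrophages, the cell cycle list had the largest median. Of 40 genes, 37 were higher and 2 lower in macrophages (38 and 2 per cell), with a median log2 ratio of 2.37, and 31 were higher by at least 2-fold. Mki67, the Ki-67 antigen of dividing cells, was at 70.1, 105 and 113 CPM in macrophages and 7.35, 9.37 and 17.2 CPM in monocytes (log2 3.16, SE 0.153, edgeR adjusted p = 1.4e-07). Top2a, which untangles DNA in mitosis, was at 98.3, 177 and 198 CPM in macrophages and 11.6, 16.8 and 21.1 CPM in monocytes (log2 3.21, SE 0.153). Pclaf, a partner of the replication clamp, was at 80.3, 129 and 155 CPM in macrophages and 7.36, 8.31 and 9.71 CPM in monocytes (log2 3.82, SE 0.099). For all 3 genes the lowest macrophage value lay above the highest monocyte value, as the naming rule required.

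Birc5, survivin (3.23, SE 0.074), Ube2c, a ubiquitin enzyme of mitotic exit (3.20, SE 0.144), Nusap1 (3.69, SE 0.127), Plk1, a mitotic kinase (3.52, SE 0.185), Cenpf (3.46, SE 0.116) and Stmn1 (2.96, SE 0.109) were in the same range, as were the histone genes H1f5 (3.83, SE 0.090) and H2ac8 (3.13, SE 0.186) and Cks1b (2.48, SE 0.081) outside the list. The 2 lower genes were Cdkn1a, the p21 inhibitor of the cycle, at 302, 369 and 398 CPM in macrophages and 725, 780 and 838 CPM in monocytes (log2 -1.20, SE 0.042), and Ccnd3, cyclin D3 (-0.99, SE 0.066). Ccnd2, cyclin D2, did not pass (0.01, SE 0.060, edgeR adjusted p = 0.90).

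The cell cycle genes were unevenly spread over the macrophages. In 6 of the 22 deposited macrophage clusters with at least 50 cells (4, 13, 17, 24, 45 and 56), the summed level of the 40 genes was 3294 to 10911 CPM, above the highest monocyte cluster at 2641 CPM. These clusters held 930 of the 4104 macrophages (22.7%), between 17.7% and 26.4% in each mouse. They were picked for these genes, so a smaller difference without them follows from the choice. The drop was not tested, and the values are a description. Without these clusters the list's median log2 ratio was 0.48, and edgeR called 27 of its 39 tested genes higher and 2 lower. Of all 11518 genes tested in that fit, 3213 were higher and 3080 lower. Top2a was at 0.44 (SE 0.112), Mki67 at 0.45 (SE 0.144), Pclaf at 1.05 and Ccnb1 at -0.02 (SE 0.287), and H1f5 reversed to -0.25. Mcm6, a subunit of the replication helicase, was at 1.54.

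**Figure D4:**
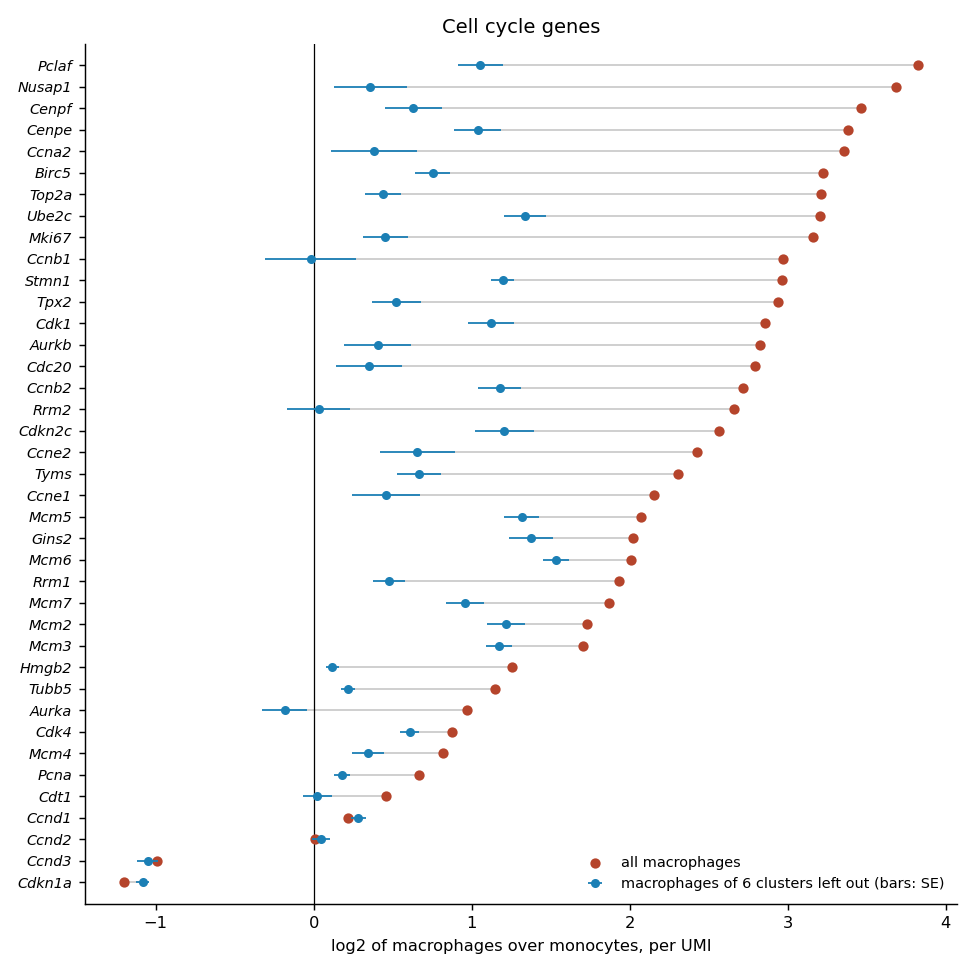
Log2 ratio of macrophages over monocytes, per UMI, for the 39 cell cycle genes tested both with all macrophages (red) and with the macrophages of clusters 4, 13, 17, 24, 45 and 56 left out (blue, bars are SE). Plk1 was tested only with all macrophages and is not shown. Leaving these clusters out moves the median from 2.37 (40 genes) to 0.48 (39 genes), while Cdkn1a and Ccnd3 stay below 0.

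Promoters of 3 of these genes follow because the list moved together. The 3 had the largest changes among the called members whose promoter held the motif below, so a match in each was required by the choice. Capitals mark CCAAT on either strand, the letters bound by the factor NF-Y. From the same RefSeq set and window, Pclaf is at chr9:65890073-65890322 and Plk1 at chr7:122159185-122159434 on the plus strand, and Cenpf at chr1:189688087-189688336 on the minus strand.
Pclaf: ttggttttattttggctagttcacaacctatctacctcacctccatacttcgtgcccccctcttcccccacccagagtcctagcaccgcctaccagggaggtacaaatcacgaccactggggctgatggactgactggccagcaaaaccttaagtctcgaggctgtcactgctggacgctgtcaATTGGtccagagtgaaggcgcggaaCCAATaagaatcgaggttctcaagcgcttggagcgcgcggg
Plk1: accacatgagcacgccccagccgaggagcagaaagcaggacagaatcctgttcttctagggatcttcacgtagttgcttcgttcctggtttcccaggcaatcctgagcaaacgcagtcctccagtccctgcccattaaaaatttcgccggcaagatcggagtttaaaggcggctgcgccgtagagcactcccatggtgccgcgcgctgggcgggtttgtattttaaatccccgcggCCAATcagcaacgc
Cenpf: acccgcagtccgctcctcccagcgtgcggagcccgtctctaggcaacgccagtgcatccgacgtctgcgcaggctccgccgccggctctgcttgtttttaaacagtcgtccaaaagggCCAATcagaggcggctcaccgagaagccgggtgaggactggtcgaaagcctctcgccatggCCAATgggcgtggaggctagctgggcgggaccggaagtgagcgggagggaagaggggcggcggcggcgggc
The nearest match lay 36 bases before the start site in Pclaf, 9 in Plk1 and 66 in Cenpf. CCAAT was in 24 of 35 promoters of the list (68.6%; 31 of 40 members matched) and in 11120 of all 32851 (33.8%). The type I interferon list had it in 36.7%, the GTPases in 25.0% and the lysosomal list in 31.2%. The lysosomal list held CACGTG, the E-box core, in 7 of 32 promoters (21.9%; 25 of 34 members matched), beside 6.02% of all.

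The deposited clusters show how wide each type is. The clusters may rest on the same genes, so these levels are descriptions with no test. Among the 22 macrophage clusters of at least 50 cells, Ly6c2 ran from 20.8 to 139 CPM, and among the 15 monocyte clusters from 604 to 5069 CPM, so no cluster overlapped. Ccr2 likewise kept apart, at 24.0 to 123 CPM in macrophage clusters and 278 to 748 CPM in monocyte clusters. C1qa did not: it was at 2243 CPM in macrophage cluster 9 and up to 7146 CPM in cluster 25, and in monocytes it ran from 119 CPM in cluster 54 to 3821 CPM in cluster 22.

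At the low end of C1qa among monocytes, cluster 54 had 1844 CPM of Chil3 and 271 CPM of Vcan, and cluster 42 had 285 CPM of Ace, against at most 60.8 CPM in any other monocyte cluster. At the high end, monocyte cluster 47 had 10597 CPM of Apoe and 1274 CPM of Ms4a7, levels inside the range of the macrophage clusters. These cells lacked neither type's genes, with Ly6c2 still at 660 CPM.

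Macrophage clusters 9 and 39 stood out by glycolysis and hypoxia genes, whose sum was 17290 and 17794 CPM beside a median of 6212 CPM over macrophage clusters. Cluster 9 also had the most Spp1, osteopontin (651 CPM), and Nos2 (150 CPM), and cluster 39 the most Arg1 (1519 CPM). Cluster 12 had the most Apoe (20559 CPM), Trem2 (727 CPM), Mrc1 (307 CPM) and summed lysosomal genes (31180 CPM). Cluster 14 had the highest class II sum (39302 CPM), and cluster 3 the highest type I interferon sum (18482 CPM), which monocyte cluster 49 passed with 36704 CPM. Over clusters the interferon sum ran from 4739 to 18482 CPM in macrophages and from 7291 to 36704 CPM in monocytes, so the ranges overlapped. The median over macrophage clusters, 6752 CPM, lay below the lowest monocyte cluster, and the median over monocyte clusters was 11139 CPM.

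**Figure D5:**
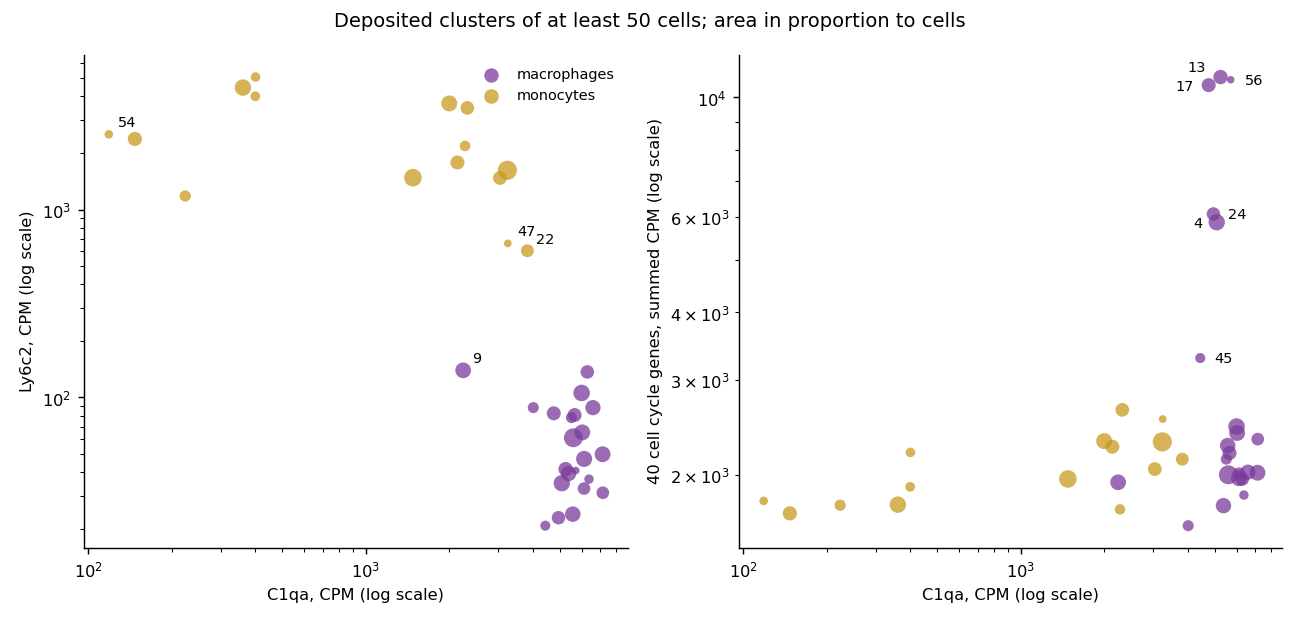
Deposited clusters of at least 50 cells (points, area in proportion to cells; macrophages violet, monocytes ochre) by C1qa and Ly6c2 (left) and by C1qa and the summed level of 40 cell cycle genes (right), all CPM on log axes. Ly6c2 parts the types (at most 139 CPM against at least 604 CPM), C1qa overlaps, and macrophage clusters 4, 13, 17, 24, 45 and 56 lie above every monocyte cluster in cell cycle genes.

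Whether an antibody changed the gap between the types was asked with a term for type by treatment in edgeR, with 2 residual degrees of freedom and the lone mouse of each Fc-enhanced antibody assumed to vary like the groups of 2. For N297A against Untreated, 0 of 11964 genes passed (0.0%), with 446 at an unadjusted p under 0.05; DESeq2 and limma-voom also gave 0, with 28 and 440 unadjusted. GA-aFuc and GITR/Syn GA-aFuc each gave 1 gene (0.00836%), with 696 and 581 unadjusted. These comparisons share the 2 Untreated mice.

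The gene was Fgf13, an intracellular relative of the fibroblast growth factors. In macrophages it was at 10.0 and 7.93 CPM in the N297A mice, 9.72 CPM in the GA-aFuc mouse, 14.0 CPM in the GITR/Syn GA-aFuc mouse and 10.0 and 29.1 CPM in the Untreated mice. In monocytes it was at 7.40 and 9.71 CPM in the N297A mice, 12.9 CPM in the GA-aFuc mouse, 17.4 CPM in the GITR/Syn GA-aFuc mouse and 1.96 and 5.74 CPM in the Untreated mice. Macrophages were thus above monocytes in both Untreated mice and below them in the mice given either Fc-enhanced antibody. The log2 gap, treated minus Untreated, was -2.76 for GA-aFuc (SE 0.40, edgeR adjusted p = 0.048) and -2.67 for GITR/Syn GA-aFuc (SE 0.37, edgeR adjusted p = 0.032). For N297A it was -2.30 (SE 0.34, edgeR adjusted p = 0.067). None of the 3 passed in DESeq2 (adjusted p of at least 0.9998), and for GA-aFuc limma-voom gave an adjusted p of 0.070. CD8 T cells of the same library held 84.7 CPM of Fgf13, and the part of such RNA in the gap was not tested.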

How the data were processed

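Libraries of CD45+ tumour cells were made with a Chromium 3′ kit and cell hashing, per the labels' protocols, and Cell Ranger 9.0.0 with GRCh38 and GRCm39 is named in the submitters' processing notes. The authors deposited UMI counts per gene, hashtag and barcode, not normalized, with a table of cell types and clusters made by steps that the sources used here do not give.

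Of 19210 cells in that table, 15450 were of both types and 6629 of these had at least 1000 mouse UMIs. The table spans more than this library, so the fall to 6629 does not measure depth. It lists 34 barcodes that were shared between libraries. Left out were 27 entries whose barcode had most hashtag UMIs from a mouse of another treatment group. Of these, 6 had a barcode listed once, and the others had a repeated barcode. Another 12 entries with an ambiguous repeated barcode were left out. The most abundant hashtag was taken as the mouse and made up 96.8% of a cell's hashtag UMIs at the median. No doublet caller was run.

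UMIs were summed per mouse and type and tested with edgeR 4.0.16 in R 4.3.3 (TMM, filterByExpr, robust quasi-likelihood, mouse as a block, Benjamini-Hochberg adjustment over 11964 genes). SE is the log2 ratio divided by the root of its F statistic. The types come from the same animals; their deviations within a mouse correlated at 0.275 to 0.339. Cells are not replicates, and all mice share 1 library. DESeq2 1.42.0 and limma 3.58.1 were alternatives, beside other scalings, filters, cell choices and leaving out each mouse; leaving out cycling clusters was chosen after seeing the data. On simulated counts 92% of 2-fold and 94% of 4-fold changes were found, with 9 false calls. For the N297A gap these were 69% and 85%, with 7. Those counts had no differences between mice, and their spread followed a trend over genes. The shares therefore do not measure what could be found in the real data.

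Named by rule were the 4 markers, the 15 genes with the largest change in each direction (adjusted p under 0.05, no overlap, at least 50 CPM) and up to 4 called genes per list; other genes were chosen after their values were seen. Members and lists were chosen with earlier results of these data known. Some genes that meet the rule are not reported here.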

Additional observations from a re-analysis of the deposited data

Results flagged for a closer look

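In each set of 6 mice of 1 type, a gene was singled out when 1 mouse stood far from the other 5 relative to the whole range (Dixon's criterion). Of 292 sets, 28 met it, where chance gives about 1 in 20. No explanation was tested.

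The GITR/Syn GA-aFuc mouse gave 10 of these values. Its macrophages had 25.9 CPM of Slpi (1.73 to 5.54 in the other mice) and 31.3 CPM of Hspb1 (3.28 to 8.71). Its monocytes had 564 CPM of Slpi (47.7 to 81.7), 133 CPM of Clec4e (83.6 to 101.6), 2.03 CPM of Folr2 (0.245 to 0.787), 12.7 CPM of F7 (0.981 to 4.26), 374 CPM of Ctsd (209 to 264), 91.7 CPM of Cxcl3 (0 to 17.6), 57.6 CPM of Slc48a1 (25.3 to 32.8) and 7.81 CPM of Hspb1 (0 to 0.672). In both cell types Slpi and Hspb1 of this mouse were the high values.

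Untreated replicate 2 had 5048 CPM of Apoe in macrophages (8561 to 9823 in the others), 3921 CPM of Rpl32 (3258 to 3469), 677 CPM of Rpl35 (576 to 611) and 29.1 CPM of Fgf13 (7.93 to 14.0). Its monocytes had 135.0 CPM of C3 (182 to 210), 63.6 CPM of Csf2rb2 (75.1 to 81.7) and 323 CPM of Hbb-bs (0.878 to 2.24), a haemoglobin gene of red cells. Untreated replicate 1 had 40.4 CPM of Tapbpl (29.6 to 33.4) and 135.1 CPM of Ndufa4 (100.0 to 109.9) in macrophages, and 17.2 CPM of Mki67 (7.35 to 11.0), 105.7 CPM of Ciita (54.7 to 69.3) and 223.9 CPM of Ndufc2 (193 to 201.5) in monocytes.

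The GA-aFuc mouse had 69.2 CPM of Blvra (79.1 to 81.2) and 41.2 CPM of Flt1 (13.03 to 20.8) in macrophages, and 68.8 CPM of Pdcd1lg2 (11.3 to 28.3) in monocytes. N297A replicate 1 had 16.3 CPM of Gas6 (5.12 to 8.57) and 3.41 CPM of Cd4 (1.35 to 1.82) in macrophages, and N297A replicate 2 had 332.8 CPM of Ifi47 (257 to 270.3) in monocytes.

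The gap between the types in Fgf13 differed from that of the Untreated mice for GA-aFuc (log2 -2.76, edgeR adjusted p = 0.048) and for GITR/Syn GA-aFuc (-2.67, edgeR adjusted p = 0.032), by the interaction term.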

How the results depend on the processing

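Of 141 genes named by the rule and tested, limma-voom and scaling by library size alone left all with the same direction and call. DESeq2 lost 4 calls (Cxcl3, Cd3g, Col3a1 and Hbb-bs), the fit with no replicate block lost 4 (Cxcl3, Slc48a1, FCGR2A and Pecam1), and the block changed no other of these calls; without it, 3275 genes were higher, 3231 lower, and 709 and 626 at least 2-fold so. Per cell, 10063 genes were higher and 611 lower, with 3528 and 224 at least 2-fold, 6 named genes lost their call, and 9 reversed: Tapbpl (log2 0.11), Nlrc5 (0.14), H2-Q6 (0.14), Tapbp (0.24), Ndufa4 (0.14), Ier5 (0.012), Cd3g (0.16), Csf3r (0.0034) and Col3a1 (0.24). Scaling by library size gave 4675 higher and 2729 lower. A mean of at least 10 CPM left 282 and 325 genes past 2-fold, because fewer genes were tested, and glmTreat against a log2 change of 1 left 393 and 374, a stricter test by construction. Without the cycling macrophage clusters 433 genes were at least 2-fold higher and H1f5 reversed to -0.25.

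Leaving out 1 mouse ended the calls of Cxcl3 and Cd3g (GA-aFuc), Cd3g (GITR/Syn GA-aFuc), Col3a1 and Hbb-bs (N297A replicate 2), and Slc2a3 and Hbb-bs (Untreated replicate 2; Hbb-bs log2 -0.41, against -4.81 with all mice). The difference per cell then ran from 5468 to 5968 UMIs, 45.0 to 55.9 genes, 0.708 to 0.754 percentage points of mitochondrial UMIs and 1488 to 2007 hashtag UMIs, each with an exact permutation p of 0.0625, the smallest that 5 mice allow.

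The gaps by treatment were not stable. Without the filter 10, 48 and 49 genes passed (N297A, GA-aFuc, GITR/Syn GA-aFuc), DESeq2 gave 0 for both Fc-enhanced antibodies, and limma-voom gave 0 for GA-aFuc and 2 for GITR/Syn GA-aFuc; the cause was not tested. Leaving out a mouse gave 0 to 43, 2 to 88 and 1 to 62 genes, and the highest counts came without an Untreated mouse. The Fgf13 gap kept its direction throughout, and for N297A its edgeR adjusted p ran from 7.3e-07 to 0.19 without 1 mouse. With 1 or 2 mice a treatment and at most 29.1 CPM of Fgf13, depth and replication limit these comparisons.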
